A study of Homo sapiens with 6 samples.

Results

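CMTM6, CMTM4, CD274, CD276, CD47, NT5E, PVR, NECTIN2 and MICA are genes by which a tumour cell holds back or alerts immune cells. They were measured in the human melanoma line A375. The members were chosen by symbol, with earlier results of these data known, and CMTM6 was picked for its rise with SLNCR. All 9 were found by Ensembl identifier among the 18318 genes of the count table. RNA was sequenced from 3 libraries of cells given SLNCR, a long non-coding RNA listed as LINC00673, and from 3 libraries of cells given the backbone alone. The SLNCR group is labelled wild type SLNCR and the other group vector backbone control, and all 6 cultures received a pcDNA3.1 plasmid by Lipofectamine 2000. That plasmid has a CAG promoter and a puromycin resistance gene, and the cells spent 48 h in puromycin at 2 µg/mL. The study's design text calls the replicates biological without saying how the cultures were separated, so p-values measure the spread between these libraries, which may be partly technical. The libraries come from a single line with no immune cells added, and RNA was measured, not protein at the cell surface.

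PD-L1, the product of CD274, binds PD-1 on T cells and dampens their response. CMTM6 is a membrane protein that holds PD-L1 at the cell surface and in recycling endosomes and keeps it from breakdown in lysosomes, and its relative CMTM4 can do the same in part. The other members act on other receptors. CD276 encodes the B7 family protein B7-H3. CD47 signals to SIRPA on macrophages not to engulf the cell, and NT5E encodes CD73, which makes the inhibitory nucleoside adenosine. PVR (CD155) and NECTIN2 (CD112) bind TIGIT, an inhibitory receptor, and CD226, an activating one. MICA marks stressed cells for the receptor NKG2D on natural killer and T cells.

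The promoters of CMTM6, CD274 and CD47 are shown because they are the members whose start regions held a searched motif. Each line is RefSeq sequence of build GRCh38.p14, 250 bases before to 50 bases after the RefSeq start, read 5′ to 3′ on the strand of the gene, with motif matches in capitals. They lie at chr3:32502803-32503102 (minus strand) for CMTM6, chr9:5450292-5450591 (plus strand) for CD274 and chr3:108090982-108091281 (minus strand) for CD47. These starts, at 32502852, 5450542 and 108091031, lie 556, 39 and 831 bases inside the gene spans that GENCODE 29 gives for CMTM6, CD274 and CD47. Motif positions count from the RefSeq start.
CMTM6: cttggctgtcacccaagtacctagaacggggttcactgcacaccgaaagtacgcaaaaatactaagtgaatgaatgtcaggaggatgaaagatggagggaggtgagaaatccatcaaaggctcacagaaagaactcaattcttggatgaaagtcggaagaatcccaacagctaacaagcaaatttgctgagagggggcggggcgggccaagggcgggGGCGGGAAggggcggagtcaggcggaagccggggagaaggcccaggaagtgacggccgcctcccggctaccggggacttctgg
CD274: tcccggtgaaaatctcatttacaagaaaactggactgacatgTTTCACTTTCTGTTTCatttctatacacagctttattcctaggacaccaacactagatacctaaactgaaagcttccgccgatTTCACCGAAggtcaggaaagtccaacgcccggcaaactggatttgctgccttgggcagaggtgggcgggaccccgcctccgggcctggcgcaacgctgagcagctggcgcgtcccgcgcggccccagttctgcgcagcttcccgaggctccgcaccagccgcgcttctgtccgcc
CD47: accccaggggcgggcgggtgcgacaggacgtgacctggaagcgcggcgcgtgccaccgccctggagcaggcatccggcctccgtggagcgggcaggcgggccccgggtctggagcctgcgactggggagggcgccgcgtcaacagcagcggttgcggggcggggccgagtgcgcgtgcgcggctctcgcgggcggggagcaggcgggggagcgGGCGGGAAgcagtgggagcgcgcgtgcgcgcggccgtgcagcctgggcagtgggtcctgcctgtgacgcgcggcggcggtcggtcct
The capitals in CMTM6 and CD47 are GGCGGGAA, a core of E2F sites, searched because the study concerns E2F1. It stands from base -33 to -26 before the CMTM6 start and from -37 to -30 before the CD47 start. On either strand it was found in 3.16% of 35116 promoters of the same length (1108). The other E2F spellings searched, TTTGGCGC, TTTCCCGC, TTTGCCGC and TTTCGCGC, which together occur in 3.31% of promoters, were in none of the members' windows. In CD274 the first capitals hold a pair of overlapping matches to the interferon response pattern (GAAA and GAAA with a pair of bases of any kind between them), from -208 to -199 and from -202 to -193 on the opposite strand, a pattern present in 3.57% of promoters. The second capitals, from -125 to -117, match the STAT pattern TTCNNNGAA, which reads alike on both strands and occurs in 7.66% of promoters. The start regions of CMTM4, CD276, NT5E, PVR, NECTIN2 and MICA held 0 matches. These matches are descriptions of the letters and not measured binding.

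The files and the labels were checked first. Total counts per library lay between 9287450 and 10822083, and 12797 genes passed the filter on low counts, all 9 members among them. LINC00673 had 170, 247 and 227 CPM (reads scaled to library size with TMM factors) with SLNCR, and 19.5, 21.4 and 21.1 CPM with the empty vector. Fold changes below are from edgeR's quasi-likelihood test, with p-values adjusted by Benjamini-Hochberg over all 12797 genes and called at 0.05. The A375 cells are labelled epithelial, but EPCAM and CDH1 averaged 2.67 reads and 1 read per library. Of 10 epithelial markers among the genes used 4 averaged more than 10 reads, namely DSP (439), KRT7 (164), ESRP2 (53) and CLDN4 (44.7). Of 16 melanocyte and melanoma markers 13 were among the genes used, and 10 averaged at least 10 reads. AXL, MITF and SOX10 averaged 8224, 875 and 126 reads per library. The pigment cell genes MLANA, TYRP1, PMEL and DCT averaged 13.7, 6, 5.83 and 2.83, and TYR, S100B and MIA were not among the genes used. Of 10 markers of T and NK cells 7 were among the genes used, summing to 6.75 to 10.1 CPM with SLNCR and 6.57 to 8.92 CPM with the empty vector, and most of that was NCAM1. Fold changes followed the GC content of transcripts across genes (r = -0.637 over 12790 genes, which are not independent replicates). Values after a per-library correction for GC content are therefore given for the members and for the other genes given with a fold change.

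CMTM6 had 174, 163 and 172 CPM with SLNCR, and 134, 130 and 140 CPM with the empty vector. All 3 SLNCR libraries stood above all 3 empty vector libraries, which is what chose this gene. Its mean was 170 ± 5.83 CPM with SLNCR and 135 ± 5.24 CPM with the empty vector (SD, n = 3 each), a log2 fold change of 0.34 (SE 0.0565), or 1.26-fold, given here as a description without a test. Among all tested genes 19.7% likewise had every SLNCR library above every empty vector library. After the GC correction the log2 fold change was 0.16 (SE 0.0457). The corrected log2 levels were 0.20, 0.17 and 0.11 above the empty vector mean in SLNCR replicates 1, 2 and 3, and 0.035, -0.045 and 0.010 from it in empty vector replicates 1, 2 and 3. The groups still did not overlap, as in 10.6% of all tested genes after that correction. The CMTM6 transcript has 39.4% GC, against a median of 47.9% over all tested genes. The gene lies on chromosome 3 from 32481312 to 32503408 on the minus strand (GRCh38, GENCODE 29) and shares 324 exon bases with CMTM7 on the plus strand. No source used here gives the strand setting of the counting, so reads of the shared bases cannot be told apart. CMTM7 itself averaged 75.2 ± 6.49 CPM with SLNCR and 74.2 ± 2.41 CPM with the empty vector (SD, n = 3 each), a log2 fold change of 0.017 (adjusted p = 0.873 by edgeR, SE 0.0719), and of 0.079 with the GC correction.

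CMTM4, the relative that can stand in for CMTM6, had 61.5, 61.0 and 66.4 CPM with SLNCR, and 61.9, 59.1 and 63.0 CPM with the empty vector. The groups overlapped, and the log2 fold change was 0.036 (adjusted p = 0.730 by edgeR, SE 0.0682). It was -0.013 with the GC correction and -0.0015 without SLNCR replicate 3. CMTM4 lies on chromosome 16 from 66614750 to 66696707. Within a library, the log2 ratio of CMTM6 to CMTM4 reads does not depend on scaling. It was 1.5, 1.42 and 1.37 with SLNCR and 1.11, 1.13 and 1.15 with the empty vector, a difference of 0.30 that is again a description because CMTM6 was chosen on it. The transcript of CMTM4 has 45.4% GC, against 39.4% for CMTM6.

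CD274, which encodes PD-L1, had 31.6, 34.4 and 41.6 CPM with SLNCR, and 27.6, 29.5 and 28.2 CPM with the empty vector. The groups did not overlap, and SLNCR replicate 3 was the highest. CD274 (chromosome 9, 5450503 to 5470566) averaged 35.9 ± 5.18 CPM with SLNCR and 28.5 ± 0.964 CPM with the empty vector (SD, n = 3 each). It rose by 0.33 on the log2 scale (adjusted p = 0.0342 by edgeR, SE 0.0991), or 1.26-fold. After the GC correction the groups overlapped and the log2 fold change was 0.18 (adjusted p = 0.325 by edgeR, SE 0.0869). Without SLNCR replicate 3 the uncorrected log2 fold change was 0.21 (edgeR adjusted p = 0.113). The log2 ratio of CD274 to CMTM6 reads was -2.46, -2.25 and -2.05 with SLNCR, and -2.27, -2.14 and -2.31 with the empty vector. Its means, -2.25 with SLNCR and -2.24 with the empty vector, differed by -0.012, less than the spread between libraries, and the sign turned without SLNCR replicate 1 (0.093) or without empty vector replicate 2 (0.040).

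**Figure D1:**
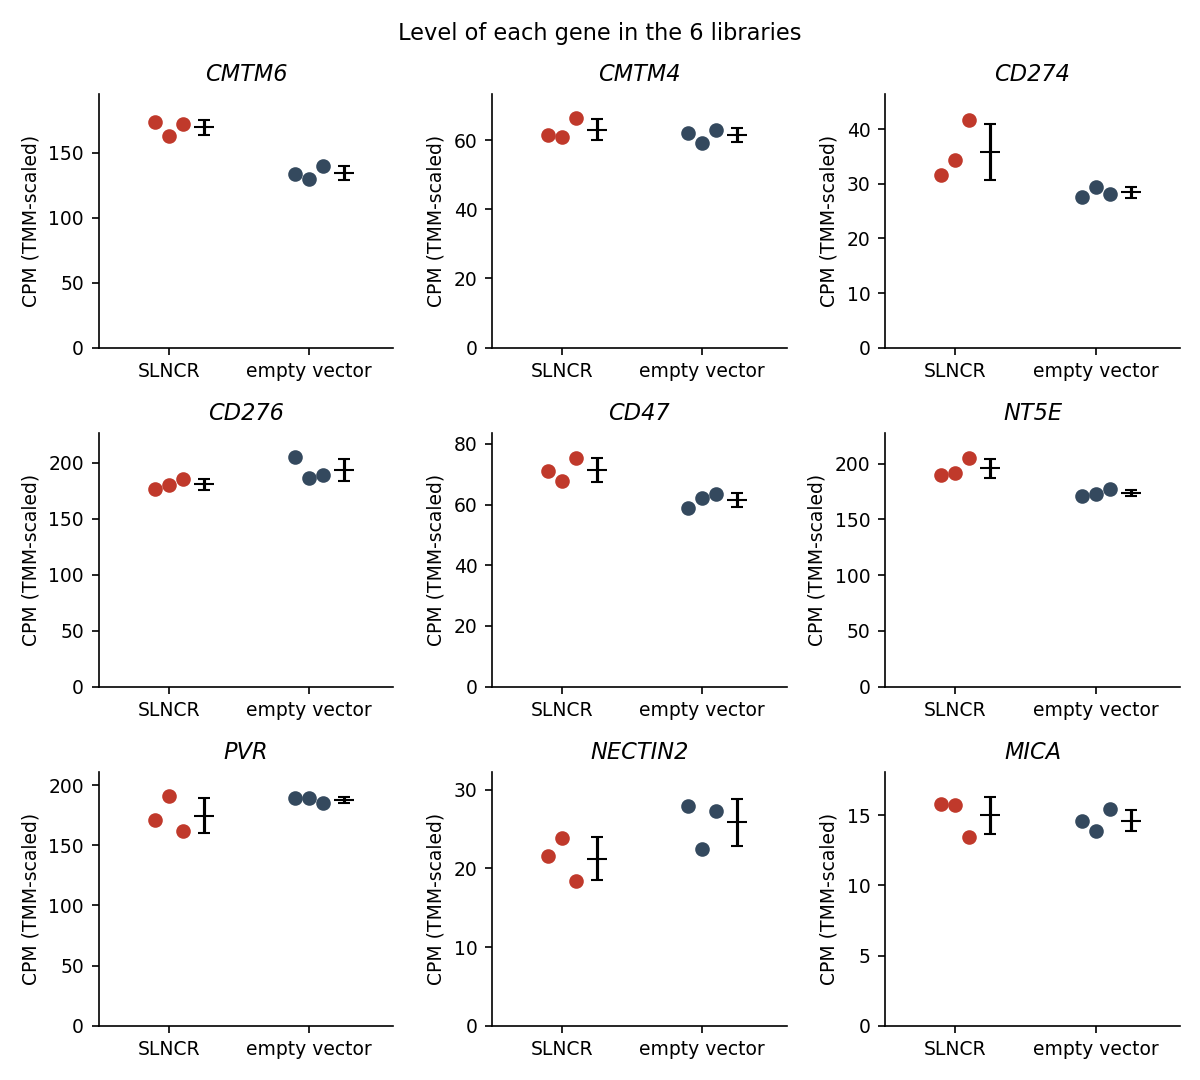
Level of each of the 9 genes in CPM (TMM-scaled, each axis from 0). Points are the 3 SLNCR libraries on the left and the 3 empty vector libraries on the right, and the bars beside them are the mean ± SD; CMTM6, CD274, CD47 and NT5E have every SLNCR point above every empty vector point, and CD276 has every SLNCR point below.

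CD276, which encodes the B7 family protein B7-H3, had 176, 181 and 186 CPM with SLNCR, and 205, 187 and 189 CPM with the empty vector. All SLNCR libraries were below the empty vector libraries, as for 19.1% of tested genes, but the nearest libraries were close. The log2 fold change of -0.099 (SE 0.0555) did not pass (edgeR adjusted p = 0.210). With the GC correction the direction turned, to 0.12 (adjusted p = 0.273 by edgeR, SE 0.0511), and every corrected SLNCR library then stood above every empty vector library. The corrected log2 levels were 0.063, 0.047 and 0.25 from the empty vector mean with SLNCR, and 0.029, -0.054 and 0.026 with the empty vector. CD276 (chromosome 15, 73683966 to 73714518) has the highest transcript GC content of the 9, 61.0%.

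CD47, the signal to macrophages, had 71.2, 67.7 and 75.3 CPM with SLNCR, and 58.9, 62.1 and 63.4 CPM with the empty vector. Every SLNCR library was above every empty vector library. It averaged 71.4 ± 3.84 CPM with SLNCR and 61.4 ± 2.33 CPM with the empty vector (SD, n = 3 each), and rose by 0.22 on the log2 scale (adjusted p = 0.0413 by edgeR, SE 0.0685). With DESeq2 it did not pass (adjusted p = 0.0572). CD47 has the lowest transcript GC content of the 9, 38.4%, and with the GC correction its log2 fold change was 0.022 (adjusted p = 0.893 by edgeR, SE 0.0567). The gene lies on chromosome 3 from 108043094 to 108091862.

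NT5E, whose product CD73 releases adenosine from AMP, had 190, 192 and 206 CPM with SLNCR, and 171, 173 and 177 CPM with the empty vector. The groups did not overlap. NT5E (chromosome 6, 85449584 to 85495791) averaged 196 ± 8.41 CPM with SLNCR and 174 ± 3.04 CPM with the empty vector (SD, n = 3 each) and rose by 0.17 on the log2 scale (adjusted p = 0.0394 by edgeR, SE 0.0539). With 45.2% GC its transcript is nearer to the median of all genes than those of CMTM6, CD274 and CD47. With the GC correction the log2 fold change was 0.12 (adjusted p = 0.190 by edgeR, SE 0.0423), and the corrected levels still did not overlap between the groups.

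PVR and NECTIN2 encode ligands of TIGIT and CD226 and lie near each other on chromosome 19, PVR from 44643798 to 44663583 and NECTIN2 from 44846175 to 44889228. PVR had 171, 191 and 162 CPM with SLNCR, and 189, 189 and 185 CPM with the empty vector. The groups overlapped, and SLNCR replicate 2 stood above the empty vector libraries. The log2 fold change of PVR was -0.10 (adjusted p = 0.228 by edgeR, SE 0.0610), and it was 0.046 with the GC correction. NECTIN2 had 21.6, 23.8 and 18.4 CPM with SLNCR, and 27.9, 22.5 and 27.3 CPM with the empty vector. SLNCR replicate 2 stood above empty vector replicate 2, so these groups overlapped as well. Its log2 fold change was the lowest of the 9, -0.28 (adjusted p = 0.0869 by edgeR, SE 0.112), and -0.089 with the GC correction. Without SLNCR replicate 2 both were called lower, PVR by -0.17 (edgeR adjusted p = 0.0379) and NECTIN2 by -0.37 (edgeR adjusted p = 0.0242). The log2 ratio of NECTIN2 to PVR reads was -2.99, -3.00 and -3.14 with SLNCR, and -2.76, -3.07 and -2.76 with the empty vector. The difference of -0.18 gave p = 0.3 in a two-sided exact permutation test, whose smallest possible p with 3 against 3 libraries is 0.1. PVR shares 121 exon bases with CEACAM19, which averaged 18 reads, and NECTIN2 shares 128 with an antisense gene that was not used here.

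MICA, the ligand of NKG2D, was the lowest member, with 15.8, 15.8 and 13.5 CPM with SLNCR, and 14.6, 13.9 and 15.4 CPM with the empty vector. The groups overlapped, with SLNCR replicate 3 the lowest of all. Its log2 fold change was 0.041 (adjusted p = 0.809 by edgeR, SE 0.113), and 0.17 with the GC correction (adjusted p = 0.478 by edgeR, SE 0.109). With a mean of 144 reads per library its fold change is among the least precise here. MICA (chromosome 6, 31399784 to 31415315) has a close paralog, MICB, so reads that match both are uncertain, and it shares 62 exon bases with HCP5. MICB averaged 28.4 ± 1.95 CPM with SLNCR and 27.1 ± 0.892 CPM with the empty vector (SD, n = 3 each), with a log2 fold change of 0.065 (adjusted p = 0.625 by edgeR, SE 0.0884), and of 0.11 with the GC correction.

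Apart from CMTM6, 3 of the 8 members passed, all of them higher with SLNCR (CD274, CD47 and NT5E), and 5 did not pass. Among all tested genes 16.5% passed, 8.84% higher and 7.67% lower. Because the 8 were chosen with earlier results of these data known, these shares are set side by side without a test. The median log2 fold change of the 8 was 0.038, beside -0.0097 over all tested genes. The groups did not overlap in 4 of the 8, beside 38.9% of all tested genes. The 3 that passed have transcripts of 38.4% to 45.2% GC, while CMTM4, at 45.4%, did not pass. Of the 4 members at 55.0% to 61.0% GC 0 passed. CMTM6, at 39.4% GC, is left out because it was picked for its rise. Shares of all tested genes at these GC contents were not counted, and a part for GC content was not tested. With the GC correction 0 of the 8 passed, beside 2 of 12797 genes (0.0156%). At an unadjusted edgeR p below 0.05 after that correction 3 of the 8 stood higher, CD274, CD276 and NT5E, beside 15.1% of all tested genes in either direction. LINC00673 has no GC value and was given the median GC content, and its log2 fold change was 3.38 in both fits. By edgeR its adjusted p was 0.0539 with the correction, so a large fold change that hardly moved also missed the threshold. Missing the threshold therefore does not tell how far a fold change moved. The log2 fold change moved from 0.33 to 0.18 for CD274, from 0.22 to 0.022 for CD47 and from 0.17 to 0.12 for NT5E. Without any library other than SLNCR replicate 2, 0 of the 8 passed. Without SLNCR replicate 2, 5 passed, with CD274, CD47 and NT5E higher and PVR and NECTIN2 lower. Over all genes the count of 2112 was 1, 3366 and 1517 without replicates 1, 2 and 3 of SLNCR. It was 1, 2 and 1884 without replicates 1, 2 and 3 of the empty vector.

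**Figure D2:**
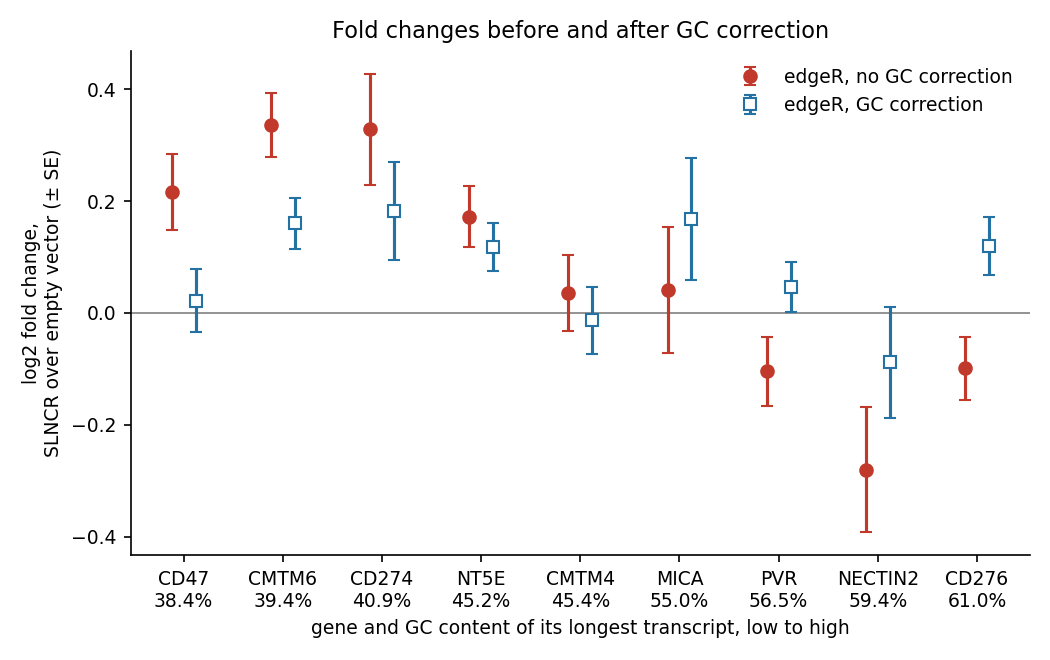
Log2 fold change (SLNCR over empty vector, ± SE) of the 9 genes, ordered by the GC content of the longest transcript. Filled points are the edgeR fit and open squares the fit with GC correction; CD47 stood at 0.022 with the correction, CMTM6 stood at 0.16, and CMTM4, PVR and CD276 changed sign.

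**Figure D3:**
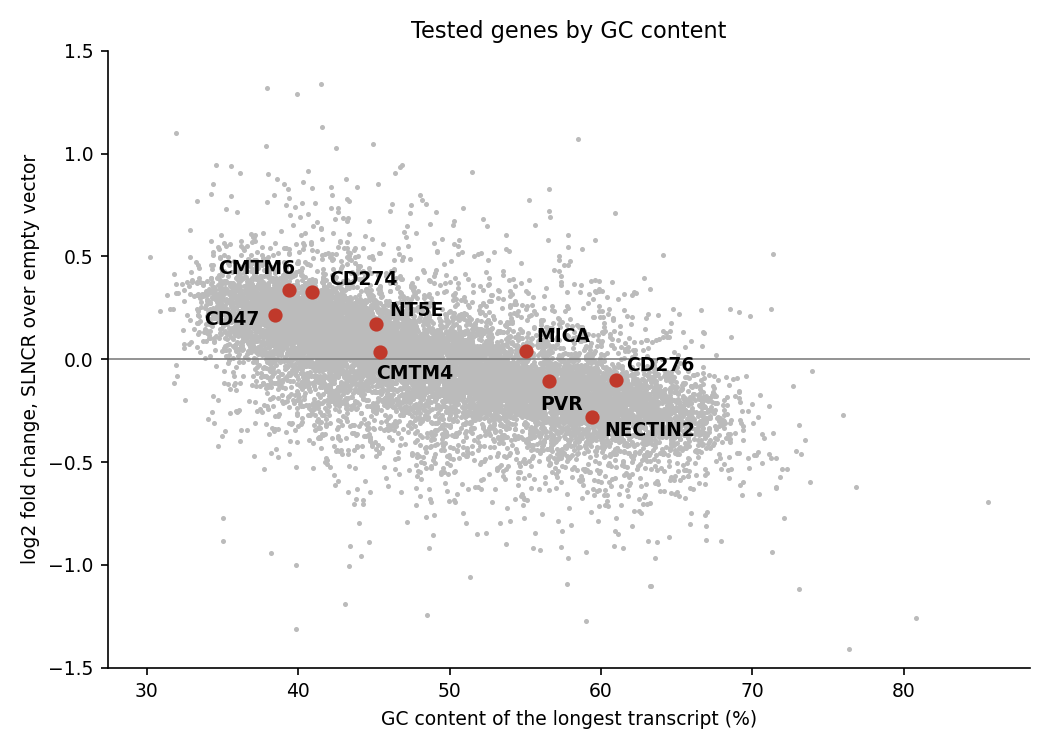
Log2 fold change (SLNCR over empty vector) against transcript GC content (%) for the tested genes in grey, with the 9 genes as labelled red points; 2 genes beyond ±1.5 are not shown. The grey cloud slopes downward, and the 9 genes lie within it, with CMTM6, CD274 and CD47 on its low-GC side and NECTIN2 and CD276 on its high-GC side.

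Levels were compared between genes per kilobase of the longest transcript. PVR stood at 52.5 ± 4.41, CD276 at 52.1 ± 1.34, NT5E at 49.997 ± 2.15 and CMTM6 at 44.0 ± 1.51 CPM per kilobase with SLNCR (SD, n = 3 each). With the empty vector the same genes stood at 56.5 ± 0.715, 55.8 ± 2.90, 44.4 ± 0.777 and 34.8 ± 1.36 CPM per kilobase (SD, n = 3 each). The ranges of PVR, CD276 and NT5E ran into each other with SLNCR, while CMTM6 lay below NT5E in both groups. The other 5 genes were several-fold lower. With SLNCR, CD47 was at 10.5, CD274 at 9.84, CMTM4 at 8.96, NECTIN2 at 8.62 and MICA at 6.64 CPM per kilobase. With the empty vector, CD47 was at 9.04, CD274 at 7.81, CMTM4 at 8.74, NECTIN2 at 10.5 and MICA at 6.47 CPM per kilobase. Neighbours from CD47 to NECTIN2 in the SLNCR order had overlapping ranges. By this length MICA was below all libraries of NECTIN2 with SLNCR and below those of CD274 with the empty vector. CMTM6 was thus 4.18-fold above CD47, the next lower gene, with SLNCR. CMTM6 stood at the 87.0th percentile of 12790 tested genes by this measure, over all 6 libraries, and CD274 at the 49.5th. With the total exonic length in place of the longest transcript CD276 stood at 32.6 CPM per kilobase with SLNCR, below CMTM6 at 38.5. By that length MICA, at 6.29 CPM per kilobase with SLNCR, was above NECTIN2 at 5.67, with overlapping ranges.

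**Figure D4:**
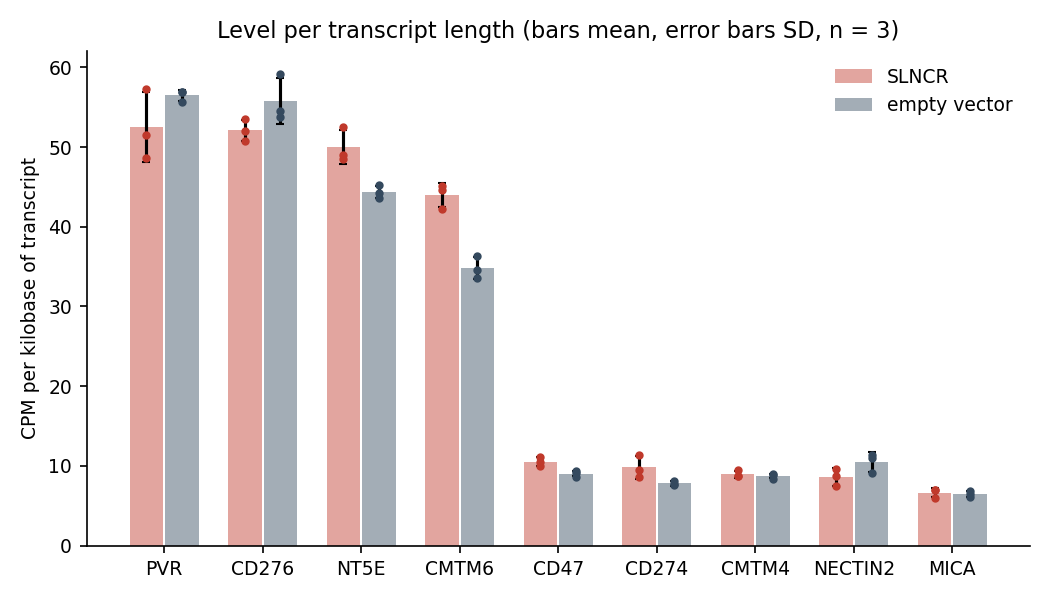
CPM per kilobase of the longest transcript for the 9 genes, ordered by the SLNCR mean. Bars are means with SD (n = 3), points are libraries, SLNCR left and empty vector right; PVR, CD276, NT5E and CMTM6 have means between 34.8 and 56.5, and the other 5 genes between 6.47 and 10.5.

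Among 9385 genes with a mean of at least 100 reads, the 5 whose log2 CPM over the 6 libraries was most like CMTM6 were TSG101, RP2, ZNF260, VCPIP1 and TAF9B, with Pearson's r of 0.992 to 0.993. TSG101 encodes a subunit of the ESCRT machinery that sorts membrane proteins to lysosomes. Those most like CD274 were FBXL20, COG2, ZBTB5, NCOA1 and ESCO1, with r of 0.989 to 0.995. These 10 genes have transcripts of 36.2% to 47.4% GC, and the 6 points of each r share the same libraries. In all 10, every SLNCR library stood above every empty vector library, as in CMTM6, CD274 and 19.7% of all tested genes. Each r includes that group difference, by which CMTM6 was picked, so these r values are descriptions. A link in function was not tested.

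The genes around these members were read from 9 lists holding 119 genes, of which 104 were among the genes used and 80 were tested. In these 80 genes 7 rose, 2 fell and 71 did not pass, beside 16.5% called over all tested genes. The median log2 fold change was 0.027. With upper quartile scaling 4 rose and 2 fell, and with the GC correction 0 passed. Of the list genes 0 passed without replicate 1 of SLNCR or without replicate 1 or 2 of the empty vector. Without SLNCR replicate 2, 21 passed, without SLNCR replicate 3, 6, and without empty vector replicate 3, 9.

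Of 16 genes that act on CD274 transcription, 2 rose and 14 did not pass (median log2 fold change 0.012). HIF1A, the oxygen-sensing factor, rose by 0.24 (adjusted p = 0.0181 by edgeR, SE 0.0605). In HIF1A the libraries had 450, 425 and 499 CPM with SLNCR, against 365, 385 and 412 CPM with the empty vector, and it stood at 0.012 with the GC correction. IRF1, which acts downstream of interferon and binds the interferon response pattern, stood at -0.30 (adjusted p = 0.0562 by edgeR, SE 0.103). IRF1 had 15.2, 15.7 and 15.2 CPM with SLNCR, and 18.7, 20.4 and 17.7 CPM with the empty vector. All SLNCR libraries were lower, as for 19.1% of tested genes, and a link between IRF1 and CD274 was not tested. With the GC correction IRF1 stood at -0.22 (edgeR adjusted p = 0.312).

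Of 16 tested genes for handling of the PD-L1 protein, 3 rose and 13 did not pass (median 0.039). CUL3 and SPOP, parts of a ubiquitin ligase that marks PD-L1 for breakdown, rose by 0.23 (adjusted p = 0.0469 by edgeR, SE 0.0756) and 0.20 (adjusted p = 0.0419 by edgeR, SE 0.0653). GSK3B, a kinase that prepares PD-L1 for breakdown, rose by 0.22 (adjusted p = 0.0494 by edgeR, SE 0.0723). SPOP had 63.6, 64.2 and 65.7 CPM with SLNCR, and 56.2, 55.5 and 56.1 CPM with the empty vector. After GC correction CUL3 stood at 0.015, GSK3B at 0.094 and SPOP at 0.16 (edgeR adjusted p = 0.934, 0.411 and 0.203). TFRC, the transferrin receptor of recycling endosomes, was at 0.13 (edgeR adjusted p = 0.0530). It stood at -0.0059 with the GC correction.

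Of 5 tested genes of the CMTM family beyond CMTM6 and CMTM4, 0 passed (median 0.017), among them CMTM3 at -0.18 and CMTM8 at 0.19. CMTM1 had the largest distance, -0.77 (adjusted p = 0.0694 by edgeR, SE 0.287), from 22.7 reads per library. CMTM1 with the GC correction stood at -0.65, CMTM3 at -0.027 and CMTM8 at 0.27. Of 11 tested further checkpoint ligands 0 passed (median 0.025). PDCD1LG2, the PD-L2 gene beside CD274, had 5.89, 6.34 and 8.68 CPM with SLNCR, and 5.69, 6.39 and 5.25 CPM with the empty vector. The groups overlapped, with a log2 fold change of 0.26 (adjusted p = 0.317 by edgeR, SE 0.180). HMGB1, a nuclear protein that cells can release as a danger signal, was at 0.12, and CD58, a ligand of CD2, at 0.26 (edgeR adjusted p = 0.0926 and 0.0962). HMGB1 with the GC correction turned to -0.081, CD58 stood at 0.16 and PDCD1LG2 at 0.13.

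Of 7 tested CD47 partners 1 rose, 2 fell and 4 did not pass (median -0.025). QPCTL, the enzyme that modifies CD47 so that SIRPA can bind, fell by 0.36 on the log2 scale (adjusted p = 0.0367 by edgeR, SE 0.110), with 19.2, 21.1 and 16.1 CPM with SLNCR against 24.6, 25.9 and 22.1 CPM with the empty vector. LRP1, the receptor that takes up cells marked by calreticulin, fell by 0.22 (adjusted p = 0.0291 by edgeR, SE 0.0644), and the integrin gene ITGAV rose by 0.28 (adjusted p = 0.0139 by edgeR, SE 0.0616). QPCT, the secreted relative of QPCTL, stood at 0.41 (adjusted p = 0.162 by edgeR, SE 0.203) from 65 reads per library, and at 0.36 with the GC correction. Of the 3 called genes ITGAV stood at 0.083, LRP1 at -0.018 and QPCTL at -0.19 with the GC correction.

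Of 8 tested genes of the adenosine pathway beside NT5E 0 passed (median -0.095). ENPP1, which makes AMP, was at 0.33 (adjusted p = 0.0510 by edgeR, SE 0.112), and ADORA1, an adenosine receptor gene, at -0.37 (adjusted p = 0.0678 by edgeR, SE 0.138). After GC correction ENPP1 stood at 0.21 and ADORA1 at -0.17. Of 9 tested NKG2D ligands and shedding genes ADAM10, a protease that sheds MICA, rose by 0.21 (adjusted p = 0.0480 by edgeR, SE 0.0687) and 8 did not pass (median 0.065). ADAM10 had overlapping groups and stood at 0.0098 with the GC correction. Of 6 tested nectins and nectin-like genes 0 passed (median 0.15), with NECTIN3 at 0.19 (edgeR adjusted p = 0.0981) and CADM1 at 0.43 from 28 reads per library (edgeR adjusted p = 0.262). After GC correction NECTIN3 stood at 0.0068 and CADM1 at 0.36. Of 12 receptors that lymphocytes use for these ligands 7 were among the genes used and 2 were tested, CD96 and PVRIG, and neither passed.

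**Figure D5:**
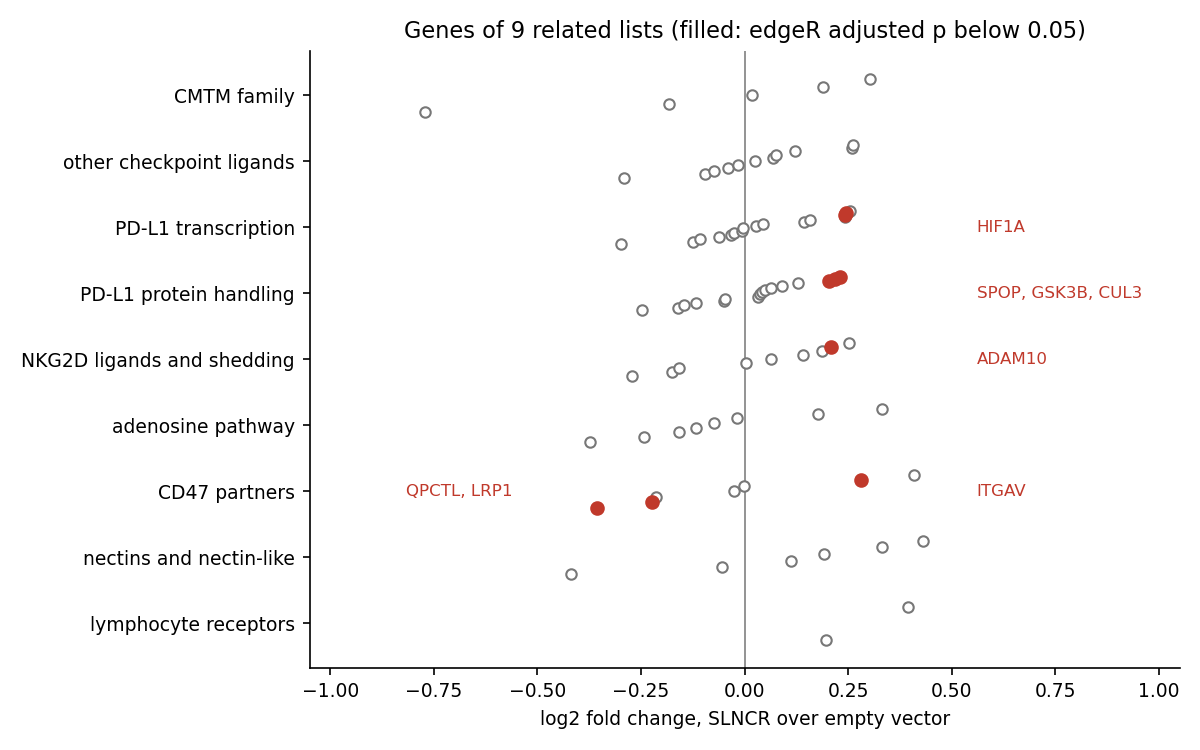
Log2 fold change (SLNCR over empty vector) of the tested genes of 9 related lists, a row for each list. Open points did not pass and filled points did, 7 of them higher and 2 lower; the names at the side are of genes described in the text, HIF1A, SPOP, GSK3B, CUL3, ADAM10 and ITGAV (higher) and QPCTL and LRP1 (lower).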

How the data were processed

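Per the submitters' processing notes, cutadapt, STAR, DESeq2 1.24.07 and build GRCh38 were used, with no role stated. The read counter, annotation and strand setting of the authors: not given in the sources used here. The deposited values are raw counts per gene. The 1857 rows of 20238 that name no gene (2.15% to 2.59% of counts) were left out, as were 63 rows that repeated the counts of the row above. GENCODE 29 gave symbols, positions, and the length and GC content of the longest transcript. The test was that of edgeR 4.0.16 under R 4.3.3 (robust quasi-likelihood F-test, TMM, filterByExpr, two-sided). SE was derived from the log2 fold change and F. For the GC correction, log2 CPM (prior count 2) was taken as a deviation from the mean of the gene over the libraries. That deviation was smoothed on GC content by loess (span 0.5) library by library. Genes at low levels or without a GC value were left out of the smoothing. The curve became an offset, and both fits were tested on simulated data. DESeq2 1.42.0, limma-voom (limma 3.58.1), other scalings and filters, a replicate block and leaving out each library were tried. Same-group libraries differed beyond sampling noise (chi-square per degree of freedom 1.74 to 6.58). The members and lists were chosen with earlier results of these data known, and CMTM6 for its rise. All 9 members are named, with up to 4 genes of smallest p per list the 5 most like CMTM6 and CD274, and genes that overlap or closely resemble a member; some genes of these lists are not reported here. Intervals cover the spread between libraries only. Fewer cells of a kind and less RNA per cell cannot be told apart in such bulk RNA.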

Additional observations from a re-analysis of the deposited data

How the results depend on the processing

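The direction of CD274, CD47, NT5E, NECTIN2 and MICA, and of CMTM6 (0.16 to 0.37), was kept under all 16 alternatives. For CMTM6 this is a description only, because it was picked for its rise in these libraries. In CMTM6, CD274, CD47 and NT5E every SLNCR library stood above every empty vector library. Leaving out a library could therefore hardly turn the direction of these genes. CD274 and NT5E passed in 9 of the 16 and CD47 in 8. The count of 3 members out of 8 was 0 with the GC correction, 0 with the GC correction and replicate block together, and 0 to 5 when a library was left out. CMTM4 turned to -0.013 with the GC correction and -0.013 with block and correction, and stood at -0.0015 to 0.058 when a library was left out; CD276 turned to 0.12 in both GC fits, and PVR to 0.046 and 0.045. The count of all changed genes, 2112, was 2 with the GC correction, 3523 with the replicate block, 407 with both, and 1 to 3366 when a library was left out; that of list genes, 9, was 0, 23 and 3 in the same fits, 14 with no filter on low counts, and 0 to 21 when a library was left out. The cause was not tested. Same-numbered libraries correlated at 0.0414, 0.0217 and 0.195 in their deviations from the group means. Differently numbered libraries correlated at -0.170 to 0.143. The main fit did not pair libraries by number, and whether the numbers mark paired cultures was not tested. With each library left out, the CMTM6 to CMTM4 log2 ratio differed between groups by 0.26 to 0.33, CD274 to CMTM6 by -0.11 to 0.093, and NECTIN2 to PVR by -0.28 to -0.12. By total exonic length the SLNCR levels were 38.5 (CMTM6), 7.76 (CMTM4), 32.6 (CD276), 8.68 (CD47), 43.2 (NT5E) and 5.67 (NECTIN2) CPM per kilobase, with MICA at 6.29. Genes near 10 reads per library, such as PVRIG, have imprecise fold changes.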

Other observations

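CD96, known as a receptor of PVR on T and natural killer cells, was read in this melanoma line at 65.3, 61.1 and 59.3 CPM with SLNCR, and 53.2, 54.4 and 54.6 CPM with the empty vector. The log2 fold change was 0.20 (adjusted p = 0.0572 by edgeR, SE 0.0688), and 0.082 with the GC correction. It averaged 564 reads per library, while the T cell genes CD3D and CD3E averaged 0.5 and 0.333. The other tested receptor, PVRIG, averaged 10 reads, and CD226 averaged 6. In the annotation the exons of CD96 share 0 bases with those of another gene. CD96 is singled out here after its values were seen.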
